A study of Homo sapiens with 18 samples.

Results

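The kinases that switch on the c-Jun N-terminal kinases (JNKs), and the scaffold proteins that hold those kinases together, are described here at the RNA level in human mammary epithelial acini labelled JNK knockout (JNKKO) or wild type (WT). The members are 10 genes chosen by name: the MAP2Ks MAP2K4 and MAP2K7, the MAP3Ks MAP3K1, MAP3K5, MAP3K10, MAP3K11 and MAP3K13, and the scaffolds MAPK8IP1, MAPK8IP3 and SPAG9. All 10 were among the 42141 genes of the deposited tables and all 10 were among the 16911 genes abundant enough to be tested. The rule that picks them uses gene names and no measured value, but the members were chosen with earlier results of these data known.

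MCF-10A.B2 is a derivative of the non-transformed mammary epithelial line MCF-10A that carries a chimeric HER2 receptor, which signals when a small molecule, the B/B homodimerizer, pulls copies of it together. The 6 groups, with 3 libraries each, are JNKKO and WT acini given ethanol in place of EGF (control), JNKKO and WT acini given the dimerizer (BB), and JNKKO and WT acini given the dimerizer with TGF-β1 (BBTGF). All of them were 21 days old, 7 days on growth-factor-reduced Matrigel before the change of medium and 14 days after it, and all of them shared insulin, hydrocortisone, cholera toxin and horse serum. The labels do not say which JNK genes were disrupted or whether JNKKO is 1 clone. Nothing says that replicates are independent cultures, and the p-values cover only the spread between these libraries, which may be technical. The library titled WT BBTGF replicate 3 carries a knockout genotype tag that contradicts its title, and it was kept with WT. WT BBTGF replicate 1 stood apart from replicates 2 and 3 (chi-square per gene 9.49 and 12.1, against at most 6.54 in the other pairs of replicates), and the calls lost without it are given beside the results. JNKKO BB replicate 2 came next, at 6.54 and 6.37 against replicates 1 and 3, which gave 2.28 between them.

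Libraries held between 24243537 and 34499651 expected counts, so that even the least abundant member, MAPK8IP1, had 43.3 to 152 counts in every library. All 8 epithelial marker genes were present in all 18 libraries, with a summed level between 4902 and 5133 TPM in JNKKO BBTGF, between 8422 and 10000 TPM in WT BBTGF, and between 5947 and 7403 TPM in the other groups. Of 5 leukocyte markers, CD68 made up nearly all of a summed level that was 31.5 to 40.3 TPM in JNKKO BB and JNKKO BBTGF and 4.44 to 15.0 TPM elsewhere, while PTPRC did not exceed 0.26 TPM. The 3 endothelial markers summed to at most 2.30 TPM and the 2 adipocyte markers to at most 1.28 TPM, with ADIPOQ at 0. The share of counts from 13 mitochondrial genes was 4.602 to 4.85% in JNKKO BBTGF, 13.01 to 13.1% in WT control and 7.32 to 9.30% in the other groups. The part of these differences in the results below was not tested. Leaving the mitochondrial counts out changed 1 of 110 member calls. That fit only takes these counts out of the library totals, so it cannot show whether the results follow the mitochondrial share. In bulk RNA, a change in the number of cells of a kind and a change in RNA per cell cannot be told apart.

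JNK signalling runs through 3 tiers. A MAP3K, switched on by stress or cytokine receptors, phosphorylates MAP2K4 (MKK4) or MAP2K7 (MKK7), and these phosphorylate the JNKs. MAP2K7 acts on JNK alone, whereas MAP2K4 also acts on p38. The JIP scaffolds bind kinases of all tiers at once and carry them along microtubules as kinesin cargo. In breast tissue MAP2K4 and MAP3K1 are best known as genes that are recurrently inactivated in tumours.

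JNK RNA itself checks the labels only in part, because a disrupted gene can still be transcribed. MAPK9 (JNK2) had 45.4, 42.0 and 44.5 CPM (counts per 1000000 counts of a library) in JNKKO control and 63.0, 62.8 and 59.2 CPM in WT control. MAPK9 was lower in JNKKO in all 3 treatments, as were 4.7% of all genes tested. MAPK8 (JNK1) had 34.8, 33.5 and 32.0 CPM in JNKKO control and 25.3, 22.7 and 24.6 CPM in WT control. MAPK8 was thus higher in JNKKO control, whereas in BBTGF it averaged 26.6 ± 0.968 CPM in JNKKO and 33.2 ± 1.76 CPM in WT (SD, n = 3 each). MAPK10 (JNK3) averaged 7.04 CPM in JNKKO control and 9.84 CPM in WT control. The order was the opposite under BB, at 6.99 CPM in JNKKO and 5.03 CPM in WT, with no overlap in either treatment. In BBTGF MAPK10 averaged 3.82 CPM in JNKKO and 4.07 CPM in WT. The library with the contradicting tag, WT BBTGF replicate 3, had 65.4 CPM of MAPK9. WT BBTGF replicates 1 and 2 had 64.7 and 68.3 CPM of it, and the JNKKO BBTGF libraries had 51.0 to 53.9 CPM. CPM are scaled by library size with TMM factors, and a gene is called higher or lower where the adjusted p of edgeR's quasi-likelihood test is under 0.05.

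Promoter sequences are shown for 3 members to place the genes and to show a motif that JUN and ATF2 dimers bind, JUN and ATF2 being the classical JNK substrates. They come from RefSeq on GRCh38.p14 and run 5′ to 3′ on the strand of the gene, from 250 bases before a start to 50 bases after it. Capitals mark the cyclic AMP response element TGACGTCA. MAPK8IP3 (chr16:1705945-1706244, plus strand) and MAP3K13 (chr3:185282711-185283010, plus strand) hold it. MAP3K5 (chr6:136792428-136792727, minus strand), the member whose level differed most between groups, does not hold it.
MAPK8IP3: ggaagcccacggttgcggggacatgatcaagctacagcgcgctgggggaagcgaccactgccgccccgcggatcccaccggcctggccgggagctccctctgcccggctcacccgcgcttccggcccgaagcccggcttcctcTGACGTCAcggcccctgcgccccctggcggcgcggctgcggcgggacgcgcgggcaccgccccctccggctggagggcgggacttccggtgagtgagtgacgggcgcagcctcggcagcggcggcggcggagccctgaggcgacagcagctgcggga
MAP3K13: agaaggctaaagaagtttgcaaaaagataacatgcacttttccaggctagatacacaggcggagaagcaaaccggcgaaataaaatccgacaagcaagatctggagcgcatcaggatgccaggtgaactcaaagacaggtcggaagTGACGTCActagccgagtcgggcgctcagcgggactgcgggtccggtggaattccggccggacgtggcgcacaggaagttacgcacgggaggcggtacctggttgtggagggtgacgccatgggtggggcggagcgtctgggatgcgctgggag
MAP3K5: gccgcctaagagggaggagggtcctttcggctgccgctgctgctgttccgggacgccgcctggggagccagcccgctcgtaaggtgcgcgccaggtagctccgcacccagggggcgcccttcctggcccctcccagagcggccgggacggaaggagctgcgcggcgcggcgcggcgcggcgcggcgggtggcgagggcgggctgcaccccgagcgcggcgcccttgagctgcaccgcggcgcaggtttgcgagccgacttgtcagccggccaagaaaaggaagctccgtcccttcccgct
The table matched 8 of the 10 members, with 9 promoters. The element was in 2 of the 9, and in 1.85% of all 35116 promoters searched the same way on both strands. The AP-1 motif TGANTCA was in 0 of the 9 and in 7.71% of all promoters, and the SMAD-binding motif AGCCAGACA was in 0 of the 9 and in 0.288%. A match describes letters in this window and says nothing of binding.

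Levels of different genes were compared in TPM, the share of a library's transcripts that a gene makes up, which accounts for length. MAPK8IP3 (JIP3) had the highest mean TPM of the 10 and MAPK8IP1 (JIP1) the lowest in all 6 groups. In JNKKO control MAPK8IP3 had 27.6, 27.5 and 27.7 TPM, above MAP2K7 (24.8 ± 0.188 TPM), MAP3K11 (24.1 ± 0.0854 TPM) and SPAG9 (21.1 ± 0.327 TPM; SD, n = 3 each), with no overlap between neighbours. In WT control MAPK8IP3 had 30.0, 30.3 and 31.6 TPM, and the next 3 lay between 24.2 and 28.3 TPM, MAP3K11 overlapping both SPAG9 and MAP2K7, which did not overlap each other. MAP3K13, MAP3K5, MAP3K10 and MAP2K4 formed a middle group, at 5.52 to 18.6 TPM over all 18 libraries. MAP3K1 had 3.18 to 5.31 TPM and MAPK8IP1 0.64 to 2.73 TPM. The largest change of place was that of MAP3K5, which had rank 5 in WT control with 17.2 ± 0.625 TPM and rank 8 in JNKKO BBTGF with 5.72 ± 0.259 TPM (SD, n = 3 each). It also had rank 8 in WT BBTGF, with 11.2 to 12.8 TPM, where it overlapped MAP2K4.

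**Figure D1:**
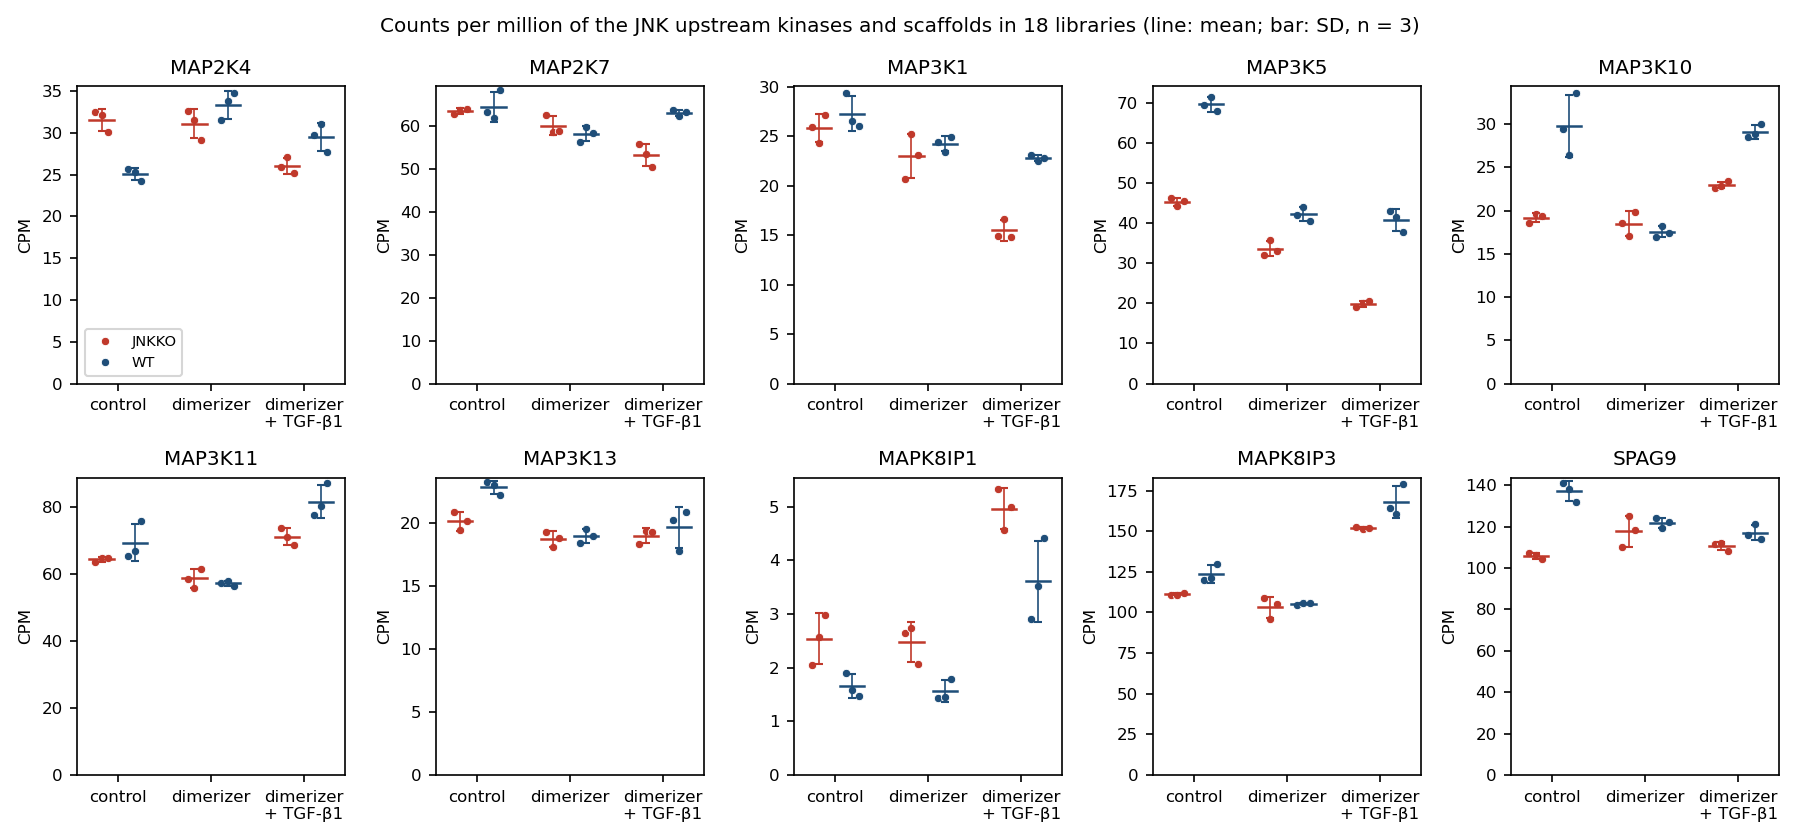
Normalised CPM (y axis, from 0) of the 10 members by treatment (x axis), with JNKKO in red and WT in blue; points are the 3 libraries of a group, lines their mean and bars the SD. MAP3K5 was lower in JNKKO at each treatment and MAPK8IP1 higher, while MAP3K10 differed between the genotypes in control and BBTGF and overlapped under BB.

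In control acini, JNKKO differed from WT in 7 of the 10 members, of which 2 were higher and 5 lower. Over all genes tested 49.3% were called, 25.8% higher and 23.5% lower. The libraries of the 2 genotypes did not overlap in 8 of the 10 members, and in 56.4% of all genes. The median log2 difference of the members was -0.13, against 0.01 over all genes. The largest differences were in MAP3K10, MAP3K5 and MAPK8IP1.

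Of the MAP2Ks, MAP2K4 had 32.5, 32.1 and 30.1 CPM in JNKKO control and 25.7, 25.3 and 24.3 CPM in WT control. The 2 groups did not overlap, and MAP2K4 was 1.26-fold higher in JNKKO (log2 difference 0.33 ± 0.06 SE, adjusted p = 2.03e-05, edgeR). MAP2K7 had 62.6, 63.7 and 63.9 CPM in JNKKO control and 63.2, 61.7 and 68.3 CPM in WT control. The MAP2K7 groups overlapped, with a log2 difference of -0.02 ± 0.04.

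Among the MAP3Ks, MAP3K5 (ASK1), a kinase that thioredoxin holds inactive until oxidative stress, had 46.1, 44.2 and 45.5 CPM in JNKKO control and 69.4, 71.5 and 67.8 CPM in WT control. Every JNKKO library was below every WT library, at 0.651 times the WT level (log2 difference -0.62 ± 0.05, adjusted p = 2.18e-11, edgeR). MAP3K10 (MLK2), a mixed-lineage kinase, had 18.6, 19.6 and 19.4 CPM in JNKKO control and 29.4, 26.4 and 33.6 CPM in WT control. The WT libraries spread more widely than the JNKKO libraries, and the ranges did not overlap (-0.64 ± 0.07, adjusted p = 1.02e-08, edgeR). MAP3K13 (LZK), a leucine-zipper kinase, averaged 20.2 ± 0.748 CPM in JNKKO control and 22.8 ± 0.511 CPM in WT control (SD, n = 3 each). That difference, -0.18 ± 0.06, lost its call without JNKKO control replicate 2 (-0.15, adjusted p = 0.0757, edgeR) and on the 4 TPM scales. MAP3K11 (MLK3) and MAP3K1 (MEKK1) were not called, at -0.11 ± 0.05 and -0.08 ± 0.07, although MAP3K11 was called without WT control replicate 1 (-0.15, adjusted p = 0.0289, edgeR).

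The 3 scaffolds moved in different directions in control acini. MAPK8IP1, which binds JNK, MAP2K7 and mixed-lineage kinases, had 2.04, 2.58 and 2.99 CPM in JNKKO control and 1.90, 1.58 and 1.48 CPM in WT control. The lowest JNKKO library lay close above the highest WT library, with a log2 difference of 0.61 ± 0.19 (adjusted p = 0.00895, edgeR). Without JNKKO control replicate 3 the call was lost (0.48, adjusted p = 0.0644, edgeR). SPAG9 (JIP4), a long coiled-coil scaffold that binds kinesin-1 and dynein, had 107, 106 and 104 CPM in JNKKO control and 141, 138 and 132 CPM in WT control. SPAG9 was 0.772 times the WT level, with no overlap (-0.37 ± 0.04, adjusted p = 1.07e-08, edgeR). MAPK8IP3, the closest relative of SPAG9, averaged 111 ± 0.675 CPM in JNKKO control and 124 ± 5.31 CPM in WT control (SD, n = 3 each), a log2 difference of -0.15 ± 0.04 (adjusted p = 0.0043, edgeR).

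Under the dimerizer, 2 of the 10 members differed between the genotypes, and 40.1% of all genes were called, 21.6% higher and 18.5% lower. These 2 members were also the ones whose libraries did not overlap, which was so in 50.3% of all genes. MAP3K5 had 32.1, 35.7 and 33.0 CPM in JNKKO BB and 42.0, 44.0 and 40.5 CPM in WT BB, again with no overlap (-0.32 ± 0.05, adjusted p = 1.02e-05, edgeR). MAPK8IP1 had 2.65, 2.75 and 2.06 CPM in JNKKO BB and 1.43, 1.46 and 1.80 CPM in WT BB (0.66 ± 0.19, adjusted p = 0.00594, edgeR). MAP3K10 averaged 18.5 ± 1.42 CPM in JNKKO BB and 17.5 ± 0.64 CPM in WT BB, and SPAG9 averaged 118 ± 7.48 CPM in JNKKO BB and 122 ± 2.50 CPM in WT BB (SD, n = 3 each). Neither was called. The other 6 had log2 differences between -0.11 and 0.04. This count rests on the scaling, since unscaled log2(TPM + 1) gave 5 members, all lower, among them SPAG9 (-0.22), MAP2K4 (-0.22) and MAPK8IP3 (-0.18), where the median of all genes was -0.09.

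Under the dimerizer with TGF-β1, 8 of the 10 members differed between the genotypes, 7 of them lower in JNKKO, and 52.9% of all genes were called. Of all genes 26.4% were called lower and 26.5% higher. The genotypes did not overlap in 9 of the 10 members and in 59.4% of all genes. MAP3K5 had 19.0, 20.1 and 20.5 CPM in JNKKO BBTGF and 42.9, 41.6 and 37.8 CPM in WT BBTGF. JNKKO held 0.487 times the WT level, the largest genotype difference of any member in any treatment (-1.04 ± 0.06, adjusted p = 3.88e-15, edgeR). MAP3K1, a kinase that also carries a ubiquitin ligase domain, had 14.9, 16.7 and 14.8 CPM in JNKKO BBTGF and 23.1, 22.5 and 22.8 CPM in WT BBTGF. It was lower in JNKKO in this treatment (-0.56 ± 0.07, adjusted p = 1.09e-07, edgeR), with no overlap.

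MAP3K10 had 22.7, 22.9 and 23.4 CPM in JNKKO BBTGF and 28.5, 28.8 and 30.0 CPM in WT BBTGF (-0.34 ± 0.07, adjusted p = 9.80e-05, edgeR). MAP2K7, not called in the other treatments, had 55.8, 53.3 and 50.4 CPM in JNKKO BBTGF and 63.6, 62.3 and 63.3 CPM in WT BBTGF (-0.25 ± 0.05, adjusted p = 3.74e-05, edgeR). All JNKKO libraries of both genes were below all WT libraries. MAP2K4, higher in JNKKO in control, was lower here, at 26.1 ± 0.956 CPM in JNKKO BBTGF and 29.5 ± 1.67 CPM in WT BBTGF (-0.18 ± 0.06, adjusted p = 0.0103, edgeR; SD, n = 3 each). Its call was lost in 3 of the 18 fits without 1 library, at -0.15 without JNKKO BBTGF replicate 1 or 3 and -0.12 without WT BBTGF replicate 2.

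MAP3K11 and MAPK8IP3 were lower in JNKKO BBTGF by smaller amounts, -0.20 ± 0.05 and -0.15 ± 0.04. Both leaned on WT BBTGF replicate 3, the library with the contradicting tag. That library was the highest of the WT BBTGF libraries for both genes, at 87.4 CPM of MAP3K11 and 179 CPM of MAPK8IP3. Without it MAP3K11 was at -0.13 (adjusted p = 0.0492, edgeR) and MAPK8IP3 at -0.08 (adjusted p = 0.146, edgeR). MAPK8IP1 had 5.32, 4.56 and 5.00 CPM in JNKKO BBTGF and 2.90, 3.51 and 4.41 CPM in WT BBTGF. It was the only member called higher (0.46 ± 0.16, adjusted p = 0.0169, edgeR), and the call was lost without JNKKO BBTGF replicate 1 (0.42) or WT BBTGF replicate 1 (0.34). SPAG9 and MAP3K13 were not called, at -0.08 ± 0.04 and -0.05 ± 0.06, although on the 4 TPM scales SPAG9 was called, at -0.12 to -0.18.

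**Figure D2:**
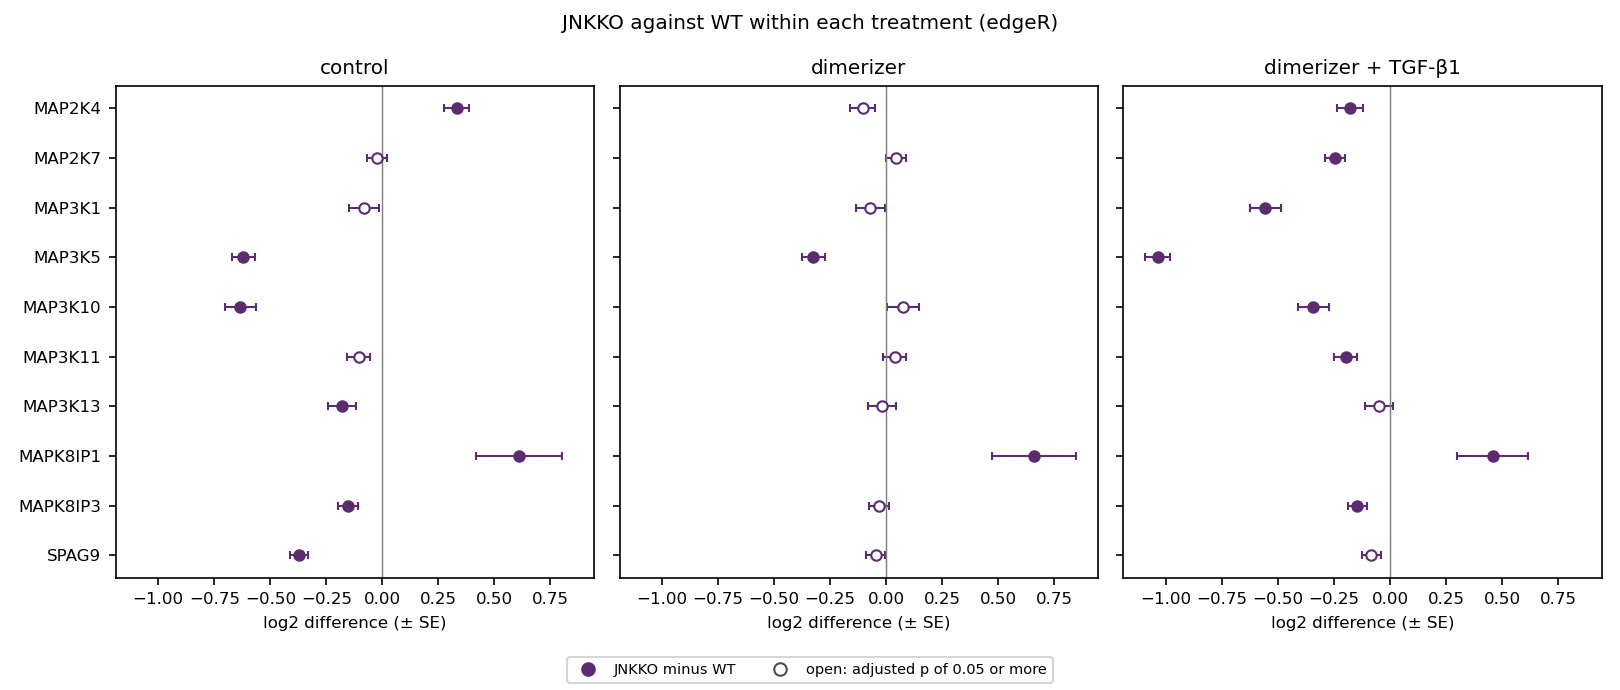
Log2 difference of JNKKO minus WT with its SE (x axis) for the 10 members (y axis) in control, BB and BBTGF; filled points were called at an adjusted p under 0.05 (edgeR). MAP3K5 lay at -0.62, -0.32 and -1.04 and MAPK8IP1 at 0.61, 0.66 and 0.46, while the other 8 members lay between -0.11 and 0.07 under BB.

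MAP3K5 was called lower, and MAPK8IP1 called higher, in JNKKO in all 3 treatments. Of all genes tested 11.1% were called the same way in all 3, and 4.7% were called lower. On log2(TPM + 1) MAPK8IP1 was not called under BB (0.26, adjusted p = 0.0549, limma). Its call in control was lost without JNKKO control replicate 3. Its call in BBTGF was lost without JNKKO BBTGF replicate 1 or WT BBTGF replicate 1. No member had all 9 JNKKO libraries apart from all 9 WT libraries across treatments, which 1.58% of all genes had.

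In JNKKO acini the dimerizer changed 4 of the 10 members relative to control, with 40.4% of all genes called. SPAG9 was higher (22.5% of all genes were) and 3 members were lower (17.9%). The groups did not overlap in 6 of the 10 members and in 49.3% of all genes. MAP3K5 averaged 33.6 ± 1.91 CPM in JNKKO BB and 45.3 ± 1.001 CPM in JNKKO control (SD, n = 3 each), a fall with no overlap (-0.43 ± 0.05, adjusted p = 1.58e-07, edgeR). SPAG9 had 110.1, 125 and 118 CPM in JNKKO BB and 107, 106 and 104 CPM in JNKKO control. SPAG9 rose by counts (0.15 ± 0.04, adjusted p = 0.00336, edgeR), but on the 4 TPM scales it was at 0.07 to 0.09 and not called. The falls of MAP3K11 (-0.13 ± 0.05) and MAPK8IP3 (-0.11 ± 0.04) had adjusted p-values of 0.0401 and 0.0479 (edgeR). These calls were lost in 5 and 10 of the 18 fits without 1 library, both of them without JNKKO BB replicate 2 (-0.10 and -0.06). MAP3K1 (-0.16 ± 0.07), not called with all libraries, was called in 8 of the 18 fits.

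In WT acini the dimerizer changed 9 of the 10 members relative to control, with 55.9% of all genes called. Of the 9, 8 were lower, as were 25.6% of all genes, and 1 was higher, as were 30.3%. The groups did not overlap in 9 of the 10 members and in 62.1% of all genes. MAP3K10 had 17.0, 18.2 and 17.4 CPM in WT BB and 29.4, 26.4 and 33.6 CPM in WT control, 0.590 times the control level (-0.76 ± 0.07, adjusted p = 1.63e-10, edgeR). MAP3K5 had 42.0, 44.0 and 40.5 CPM in WT BB and 69.4, 71.5 and 67.8 CPM in WT control (-0.72 ± 0.05, adjusted p = 5.27e-13, edgeR). MAP2K4 rose to 31.5, 33.9 and 34.8 CPM in WT BB, against 25.7, 25.3 and 24.3 CPM in WT control (0.41 ± 0.06, adjusted p = 3.69e-07, edgeR). None of these 3 genes had overlapping groups.

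The other 6 members called in WT acini under the dimerizer, all lower, were MAP3K11 (-0.28), MAP3K13 (-0.27), MAPK8IP3 (-0.23), SPAG9 (-0.17), MAP3K1 (-0.17) and MAP2K7 (-0.15). MAP3K1 lost its call without WT control replicate 1 (-0.12) or WT BB replicate 2 (-0.17), and MAP2K7 without WT control replicate 3 (-0.10). On unscaled log2(TPM + 1), where the median of all genes was 0.09, MAP2K7, MAP3K1, MAP3K13 and SPAG9 were not called, which left 1 member higher and 4 lower. MAPK8IP1 was not called (-0.08 ± 0.20).

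The difference between the 2 responses to the dimerizer was tested as an interaction, JNKKO response minus WT response. It was called in 4 of the 10 members, 3 above 0 and 1 below, with 42.6% of all genes called, 21.4% above 0 and 21.2% below. MAP3K10 showed the largest, 0.71 ± 0.10 (adjusted p = 1.40e-06, edgeR), with a response of -0.05 in JNKKO and -0.76 in WT. MAP2K4 had an interaction of -0.44 ± 0.08 (adjusted p = 5.54e-05, edgeR), with responses of -0.02 in JNKKO and 0.41 in WT. SPAG9 was at 0.33 ± 0.06 (adjusted p = 3.55e-05, edgeR), with responses of 0.15 in JNKKO and -0.17 in WT. MAP3K5, lower under the dimerizer in both genotypes, was at 0.30 ± 0.07 (adjusted p = 0.0014, edgeR), which is a smaller fall in JNKKO. On unscaled log2(TPM + 1) the interactions of SPAG9 (0.12) and MAP3K5 (0.15) were not called. These responses share their control libraries with the genotype comparison in control acini, where these 4 were among the 7 called. The interaction of MAPK8IP3 was called only without JNKKO BB replicate 2 (0.17, adjusted p = 0.0182, edgeR). That of MAP3K11 was called only without WT control replicate 1 (0.19, adjusted p = 0.0462, edgeR).

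Adding TGF-β1 to the dimerizer changed 8 of the 10 members in JNKKO acini, 4 higher and 4 lower, with 60.7% of all genes called, 30.5% higher and 30.3% lower. The groups did not overlap in 8 of the members and in 64.8% of all genes. In WT acini TGF-β1 changed 6 members, of which 5 were higher and 1 lower, with 65.2% of all genes called, 33.4% higher and 31.8% lower. Groups did not overlap there in 7 members and in 69.6% of all genes. Both genotypes shared a rise of MAPK8IP1, MAPK8IP3, MAP3K10 and MAP3K11. MAPK8IP1 had 5.32, 4.56 and 5.00 CPM in JNKKO BBTGF and 2.65, 2.75 and 2.06 CPM in JNKKO BB, a 2.00-fold rise (1.0 ± 0.17, adjusted p = 7.91e-06, edgeR). In WT it had 2.90, 3.51 and 4.41 CPM in BBTGF and 1.43, 1.46 and 1.80 CPM in BB, a 2.30-fold rise (1.2 ± 0.18, adjusted p = 9.39e-07, edgeR). It was the largest rise of any member in this comparison, and no groups overlapped.

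MAPK8IP3, whose promoter stretch with the response element is given above, had 152, 151 and 152 CPM in JNKKO BBTGF and 109, 96.2 and 105 CPM in JNKKO BB (0.56 ± 0.04, adjusted p = 3.65e-12, edgeR). In WT it had 164, 161 and 179 CPM in BBTGF and 105, 106 and 106 CPM in BB (0.67 ± 0.04, adjusted p = 3.32e-14, edgeR). MAP3K13, whose promoter stretch holds the same element, was not called in either genotype, at 0.02 ± 0.06 in JNKKO and 0.05 ± 0.06 in WT. On unscaled log2(TPM + 1) MAP3K13 was called at 0.27 in both, where the median of all genes was 0.16 in JNKKO and 0.11 in WT. Whether the element has a part in either gene's response was not tested.

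MAP3K10 and MAP3K11 rose in both genotypes and by more in WT. MAP3K10 averaged 23.0 ± 0.367 CPM in JNKKO BBTGF and 18.5 ± 1.42 CPM in JNKKO BB (0.31 ± 0.07), and 29.1 ± 0.812 CPM in WT BBTGF and 17.5 ± 0.64 CPM in WT BB (0.73 ± 0.07; SD, n = 3 each). The difference between these responses was -0.42 ± 0.10 (adjusted p = 0.00158, edgeR). MAP3K11 rose by 0.28 ± 0.05 in JNKKO and 0.51 ± 0.05 in WT, with a difference between the responses of -0.24 ± 0.07 (adjusted p = 0.0123, edgeR). The MAP3K11 interaction was not called without JNKKO BB replicate 3 (-0.20) or WT BBTGF replicate 3 (-0.16), nor on the 4 TPM scales.

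MAP3K5 and MAP3K1 fell with TGF-β1 in JNKKO, and in WT neither was called. MAP3K5 had 19.0, 20.1 and 20.5 CPM in JNKKO BBTGF and 32.1, 35.7 and 33.0 CPM in JNKKO BB (-0.76 ± 0.06, adjusted p = 1.85e-12, edgeR). In WT it had 42.9, 41.6 and 37.8 CPM in BBTGF and 42.0, 44.0 and 40.5 CPM in BB (-0.05 ± 0.05). The interaction was -0.71 ± 0.08 (adjusted p = 2.89e-08, edgeR). MAP3K1 had 14.9, 16.7 and 14.8 CPM in JNKKO BBTGF and 20.7, 25.2 and 23.1 CPM in JNKKO BB (-0.58 ± 0.07, adjusted p = 3.85e-08, edgeR). In WT MAP3K1 averaged 22.8 ± 0.291 CPM in BBTGF and 24.2 ± 0.738 CPM in BB (-0.09 ± 0.07; SD, n = 3 each), and its interaction was -0.49 ± 0.10 (adjusted p = 0.000231, edgeR).

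By counts both MAP2Ks were called with TGF-β1 in both genotypes, at smaller differences than the other members called. MAP2K7 fell by 0.17 ± 0.05 in JNKKO and rose by 0.12 ± 0.04 in WT on the log2 scale of counts, with an interaction of -0.29 ± 0.06 (adjusted p = 0.0007, edgeR), but on unscaled log2(TPM + 1) its JNKKO difference turned to 0.07. MAP2K4 was lower in both genotypes, by -0.25 ± 0.06 in JNKKO and -0.18 ± 0.06 in WT, and on the same TPM scale it was not called in either. The rise of MAP2K7 in WT lost its call without WT BB replicate 1 (0.10), WT BBTGF replicate 1 (0.11) or WT BBTGF replicate 3 (0.11). All 5 interactions called were negative, JNKKO response minus WT response, with 32.9% of all genes called, 18.8% in that direction and 14.1% in the other. The interaction of MAPK8IP3 with TGF-β1 was called only without JNKKO BB replicate 2 (-0.16, adjusted p = 0.0278, edgeR).

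**Figure D3:**
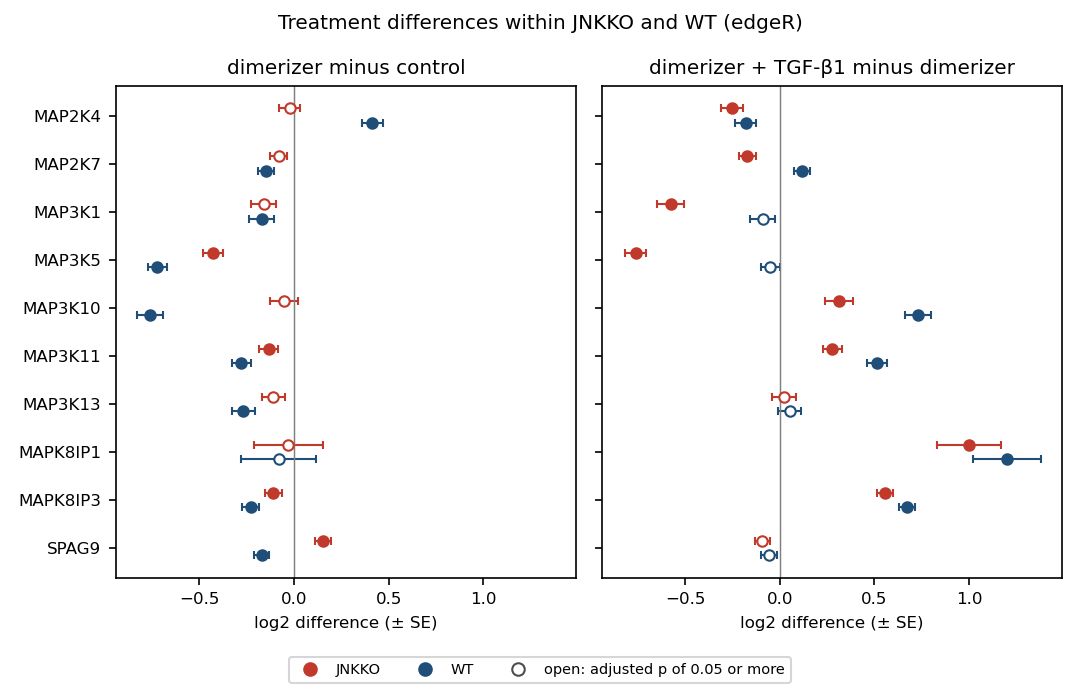
Log2 difference with its SE (x axis) of BB minus control (left) and BBTGF minus BB (right) for the 10 members (y axis), with JNKKO in red above WT in blue; open points were not called (edgeR). On the left MAP3K10 was at -0.05 in JNKKO and -0.76 in WT, and on the right MAP3K5 was at -0.76 in JNKKO and -0.05 in WT.

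Set against control, the dimerizer with TGF-β1 left 4 members higher and 4 lower in JNKKO, with 67.3% of all genes called, 33.8% higher and 33.4% lower. In WT it also left 4 higher and 4 lower, with 61.8% of all genes called, 31.3% higher and 30.5% lower. Groups did not overlap in 10 members in JNKKO (71.2% of all genes) and in 8 in WT (64.9%). The counts rest on the scaling: unscaled log2(TPM + 1) gave 5 higher and 2 lower in JNKKO and 6 higher and 1 lower in WT, where MAP3K1 (0.01), MAP3K13 (0.09) and SPAG9 (-0.03) were no longer called. MAP3K5 was the lowest in both, at 19.9 ± 0.789 CPM in JNKKO BBTGF and 45.3 ± 1.001 CPM in JNKKO control (-1.19 ± 0.06, adjusted p = 2.65e-17, edgeR), and at 40.7 ± 2.65 CPM in WT BBTGF and 69.6 ± 1.86 CPM in WT control (-0.77 ± 0.05, adjusted p = 4.93e-14, edgeR; SD, n = 3 each). MAP3K10 in WT had 29.1 ± 0.812 CPM in BBTGF, against 29.8 ± 3.6 CPM in control (-0.03 ± 0.07, not called), and in JNKKO it had 23.0 ± 0.367 CPM in BBTGF, against 19.2 ± 0.515 CPM in control (0.26 ± 0.07, adjusted p = 0.00209, edgeR; SD, n = 3 each). On unscaled log2(TPM + 1), where the median of all genes in WT was 0.17, the WT difference of MAP3K10 was 0.22 and was called. MAP2K4 was lower than control in JNKKO (-0.27 ± 0.06), though not called on unscaled log2(TPM + 1) (-0.06), and higher than control in WT (0.23 ± 0.06).

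Ratios of TPM between related members are free of library scaling. MAP2K7 over MAP2K4, the JNK-specific kinase over the shared one, was 2.20 to 2.42 in JNKKO control and 2.78 to 3.21 in WT control, without overlap. Under BB it was 2.12 to 2.30 in JNKKO and 1.91 to 2.04 in WT, so the order of the genotypes was the opposite of that in control. In BBTGF the ranges overlapped, at 2.24 to 2.46 in JNKKO and 2.29 to 2.60 in WT. The ratio of MAPK8IP3 over its relative SPAG9 was 1.82 to 1.86 in JNKKO BBTGF and 1.75 to 2.01 in WT BBTGF, above the 0.958 to 1.32 of the 12 libraries without TGF-β1. MAP3K11 over MAP3K10 was 3.22 to 3.35 in JNKKO control and 2.18 to 2.46 in WT control. Under BB its ranges overlapped, at 3.01 to 3.18 in JNKKO and 3.11 to 3.30 in WT. In BBTGF they lay close together, at 2.93 to 3.13 in JNKKO and 2.71 to 2.90 in WT.

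**Figure D4:**
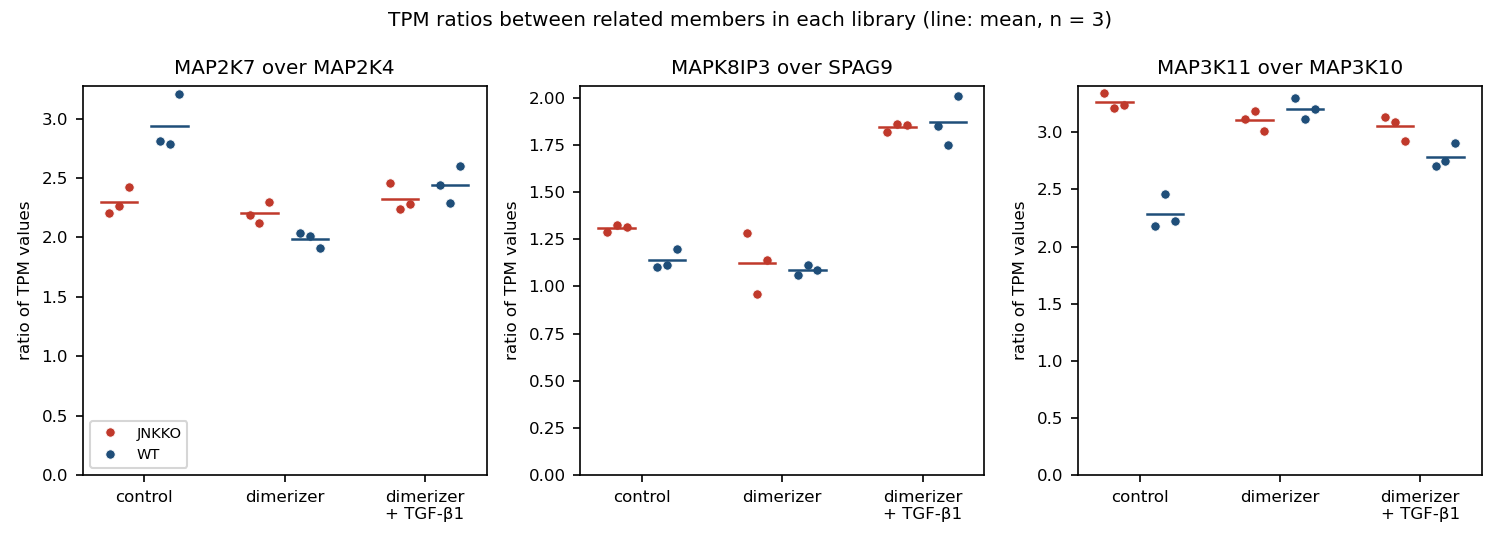
Ratio of TPM values (y axis, from 0) between related members in each library by treatment (x axis), with JNKKO in red and WT in blue and lines at the mean of 3 libraries. MAPK8IP3 over SPAG9 was 1.75 or more in the 6 BBTGF libraries and 1.32 or less in the other 12.

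The deposited counts and TPM together imply an effective length for each gene. It moves when the mix of isoforms does, but it also differed for genes with 1 listed transcript. The length test (limma, 13603 genes) called 0 members in JNKKO against WT in control (1.92% of all genes) and under BB (0.287%), and 0 in BB against control in JNKKO (0.346%) and WT (5.62%). SPAG9 was called longer with TGF-β1 in both genotypes. Its implied length was 2.61, 2.71 and 2.60 times the library's median in JNKKO BBTGF and 2.53, 2.41 and 2.51 in JNKKO BB, a log2 difference of 0.09 ± 0.02 (adjusted p = 0.0151, limma). In WT it was 2.56, 2.60 and 2.52 in BBTGF and 2.44, 2.38 and 2.41 in BB (0.09 ± 0.02, adjusted p = 0.0361, limma). Its calls rest on single libraries. With TGF-β1 in JNKKO no member, SPAG9 included, was called without JNKKO BBTGF replicate 2, and in WT none was called in 5 of the 18 fits without 1 library, those without JNKKO control replicate 1, WT BB replicate 2 or 3, or WT BBTGF replicate 1 or 2. With TGF-β1 against BB, 44.7% of all genes were called in JNKKO, with 4 members, and 3.09% in WT, with SPAG9 alone. The other calls, 3 in JNKKO BBTGF against BB and 5 in JNKKO against WT in BBTGF (47.8% of all genes), were all at -0.01. Both sets included MAP3K10, and the 5 also included MAP3K1 and MAP3K5, genes with 1 listed transcript each. A length call by itself is thus not a change in the mix of isoforms. The JNKs, which are no members, had longer implied lengths in every JNKKO library than in every WT library of the same treatment for MAPK8 and for MAPK9. The JNKKO minus WT differences of MAPK8 were 0.24, 0.36 and 0.30 in control, BB and BBTGF, of which the last was called (adjusted p = 0.0131, limma). Those of MAPK9 were 0.11, 0.27 and 0.35, of which the last 2 were called (adjusted p = 0.0406 and 0.000902, limma).

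The genes around the members were counted from lists of the same pathway. Of 11 other MAP3Ks, 4 were higher and 5 lower in JNKKO control than in WT control, against 25.8% and 23.5% of all genes. With TGF-β1 against BB 7 were higher and 1 lower in JNKKO (30.5% and 30.3% of all genes), and 5 higher and 2 lower in WT (33.4% and 31.8%). MAP3K9, the mixed-lineage relative of MAP3K10, averaged 65.9 CPM in WT BBTGF and 33.5 CPM in WT BB (0.97 ± 0.05, adjusted p = 1.17e-16, edgeR), and its interaction with TGF-β1 was -0.78 ± 0.07. MAP3K12 (DLK), the relative of MAP3K13, had an interaction with the dimerizer of -1.02 ± 0.11. Of the 5 other MAP2Ks, MAP2K6, a p38 kinase, was lower with TGF-β1 in both genotypes, at 1.65 CPM in JNKKO BBTGF and 6.20 CPM in JNKKO BB (-1.91 ± 0.14), and at 2.97 CPM in WT BBTGF and 11.5 CPM in WT BB (-1.95 ± 0.12). Of 7 MAP4Ks, which act above the MAP3Ks, MAP4K2 was higher with TGF-β1 in JNKKO (1.05 ± 0.07) and in WT (0.72 ± 0.07), and 2 were higher and 3 lower in each genotype, to be read against the same shares.

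Among other scaffolds and adaptors, GADD45B, which binds and activates the MAP3K4 kinase, averaged 8.41 CPM in JNKKO control and 27.3 CPM in WT control (-1.70 ± 0.10, adjusted p = 2.95e-13, edgeR). In WT, GADD45B averaged 5.59 CPM in BB, 0.205 times the 27.3 CPM of control, and 32.6 CPM in BBTGF. SH3RF2 averaged 19.4 CPM in JNKKO BBTGF and 41.6 CPM in WT BBTGF (-1.10 ± 0.06, adjusted p = 2.29e-14, edgeR). Of the 15 genes of that list, 7 were higher and 4 lower in JNKKO control (25.8% and 23.5% of all genes). Under BB 4 were higher and 4 lower (21.6% and 18.5%), and in BBTGF 4 were higher and 6 lower (26.5% and 26.4%).

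The JIP scaffolds reach kinesin-1 through its light chains. Of 7 motor partners 6 were tested, and with TGF-β1 against BB 4 were higher and 1 lower in JNKKO, and 4 higher and 0 lower in WT. Of all genes 30.5% were higher and 30.3% lower in JNKKO, and 33.4% and 31.8% in WT, and on unscaled log2(TPM + 1) 75.4% of the genes called in JNKKO and 66.1% of those called in WT were higher. KLC1, a kinesin light chain, averaged 156 CPM in JNKKO BBTGF and 121 CPM in JNKKO BB (0.37 ± 0.03), and 156 CPM in WT BBTGF and 109 CPM in WT BB (0.52 ± 0.03). KLC2 was higher by 0.38 ± 0.06 in JNKKO and by 0.74 ± 0.06 in WT, with an interaction of -0.36 ± 0.08 (adjusted p = 0.00122, edgeR).

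The members with the widest range of group means were MAP3K5, MAPK8IP1 and MAP3K1, at 1.81, 1.63 and 0.82 on the log2 CPM scale. For each, the genes most like it in log2 CPM over the 18 libraries were found by Pearson's r, as a description. They were PPM1L (0.990), LPIN1 (0.989) and TLE1 (0.988) for MAP3K5. For MAPK8IP1 they were PIK3CD (0.945), RAC1 (0.934) and MEX3A (0.933), and for MAP3K1 they were NFE2L2 (0.966), TRIM66 (0.963) and PIK3C2B (0.957). Among the members themselves the closest pairs were MAP3K11 with MAPK8IP3 (0.926) and MAP3K1 with MAP3K5 (0.913), and the most opposed were MAP3K5 with MAPK8IP1 (-0.766). The libraries share 6 group means, so these values mostly describe those.

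The members lie on chromosomes 3, 5, 6, 11, 16, 17 and 19 of hg38. For 8 of them GENCODE 29 lists other genes that overlap them, such as NME3 on the opposite strand of MAPK8IP3, TMEM41A opposite MAP3K13 and an antisense gene at MAPK8IP1. The sources used here do not say whether counting used strand, and reads of such neighbours could have been counted with these members. MAP3K10 and MAP3K11 have no overlapping gene.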

How the data were processed

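RNA from acini was poly(A)-selected, depleted of ribosomal RNA and sequenced from both ends, per the labels' protocols; cutadapt, RSEM and hg38 are named in the submitters' processing notes, without versions; which annotation was used, and whether strand was, is not given in the sources used here. The authors deposited expected counts (fractional where reads were shared) and TPM per gene. Genes were matched to GENCODE 29 by transcript identifiers.

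Rounded expected counts went into edgeR 4.0.16 in R 4.3.3 (quasi-likelihood, robust, TMM, default filter), all 18 libraries in 1 model with 1 mean per group and the Benjamini-Hochberg method over 16911 genes, threshold 0.05. Each SE was derived from the log2 difference and its F statistic. Implied length, expected count over TPM divided by the library's median, was tested with limma 3.58.1 in genes of mean CPM of at least 1. The common biological coefficient of variation was 4.47%. Totals and the low count of MAPK8IP1 limit precision. Replicate pairs differed by more than sampling noise (chi-square per gene 2.28 to 12.1).

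Alternatives were DESeq2 1.42.0 and its size factors, no filter, no mitochondrial counts, log2(TPM + 1) and log2(TPM + 0.1) with limma, a replicate block, the compared groups alone and leaving out each library. The edgeR procedure was tested on simulated data in which few genes changed, in 1 group. Far larger shares of genes were called in these data, so that run does not check the scaling. Named genes are all members, the 3 JNKs, up to 2 called genes of each pathway list with the smallest adjusted p in a comparison, and the 3 genes most like each of the 3 widest-ranging members; not all of them are printed. The members and lists were chosen with earlier results of these data known.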

Additional observations from a re-analysis of the deposited data

Results flagged for a closer look

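The response to a treatment differed between JNKKO and WT, by the interaction test of edgeR, in 9 cases among the members, each given as the JNKKO response minus the WT response on the log2 scale. For the dimerizer these were MAP3K10 (0.7096), MAP2K4 (-0.4363), SPAG9 (0.3261) and MAP3K5 (0.2956), in a comparison in which 42.6% of all genes were called. For TGF-β1 added to the dimerizer they were MAP3K5 (-0.7120), MAP3K1 (-0.4868), MAP3K10 (-0.4164), MAP2K7 (-0.2901) and MAP3K11 (-0.2355), with 32.9% of all genes called. MAP3K5 and MAP3K10 appear in both, each with opposite signs; both interactions use the BB libraries, so the values are not independent. Mitochondrial share and CD68 differed between the same groups, and their part in these differences was not tested. The fit without mitochondrial counts changed none of the 9 calls, but it only takes these counts out of the library totals.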

How the results depend on the processing

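Of 110 member results, DESeq2 changed 0 calls, the compared groups alone 0, DESeq2 size factors 1, leaving out mitochondrial counts 1, and no filter 1. The replicate numbers do not pair the libraries (correlations of their deviations between -0.062 and 0.077), and the replicate block changed 0 of the 110 calls. Leaving out 1 library kept 1934 of 1980 results on their side, with 32 calls lost and 14 gained. The median log2 difference of all genes reached 0.23 on unscaled TPM, in BBTGF against control in WT, where it was -0.02 by counts. TMM-scaled TPM turned the direction of no called value; SPAG9 in BBTGF against control in JNKKO, not called on either scale, was at -0.08 (0.06 by counts).

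With log2(TPM + 1), log2(TPM + 0.1) and log2(TPM + 1) without a filter, in that order, the members called were 5, 6 and 4 in JNKKO against WT under BB (2 by counts), 5, 5 and 4 in BB against control in WT (9 by counts), and 2, 2 and 2 for the dimerizer interaction (4 by counts). The share of called genes that were higher moved by over 10 points with log2(TPM + 1) in several comparisons: it was 24.6% in JNKKO against WT under BB (53.9% by counts), 69.0% in BB against control in WT (54.2%), 75.4% with TGF-β1 in JNKKO (50.2%) and 66.1% in WT (51.2%), 68.1% in BBTGF against control in JNKKO (50.3%) and 77.8% in WT (50.7%), 29.8% for the dimerizer interaction (50.1%) and 63.0% for the TGF-β1 interaction (42.9%). TMM-scaled TPM gave 2 members in BB against control in JNKKO (4 by counts). Directions turned, in the same order, for MAP2K7 with TGF-β1 in JNKKO (0.0724, 0.0752, 0.0724), and in BBTGF against control in WT for MAP2K7 (0.2298, 0.2374, 0.2298), MAP3K1 (0.0072, 0.0088, 0.0072), MAP3K10 (0.2219, 0.2383, 0.2219) and MAP3K13 (0.0933, 0.0981, 0.0933). None of these directions turned on TMM-scaled TPM, and the cause of the shift in unscaled TPM was not tested. Without 1 library, BB against control in JNKKO gave 2 to 5 members.

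Length calls were less stable. With a mean CPM of at least 5 they were 4 for BB against control in WT (0 otherwise) and 2 for TGF-β1 in WT (1 otherwise). Without 1 library they ran from 0 to 5 in JNKKO against WT in control and 0 to 6 in BB against control in WT, in both cases highest without WT control replicate 1, and from 0 to 6 for TGF-β1 in JNKKO and 0 to 2 in WT. The depth limits MAPK8IP1 most.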
